A study of Mus musculus with 6 samples.

Results

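The 72 genes described here, of a table of 15565 genes, were chosen by symbol from the gene families of cell division. They are the cyclins, the cyclin-dependent kinases (CDKs), their inhibitors, and the retinoblastoma and E2F proteins. The Mcm genes of replication licensing and the proliferation markers Mki67, Ect2, Pcna and Top2a complete the set. Not all of the 72 act in cell division: 7 cyclins and 7 CDKs are grouped here as transcriptional. Some other symbols share a prefix but not a role, such as Mcm3ap and Cdkn2aip, and these were kept and are described apart. RNA was sequenced from hepatocytes, the parenchymal cells of the liver, of 3 mice. From each mouse a TERT(High) and a TERT(Low) population was sorted, which gave 3 libraries of each. Tert is the gene of telomerase reverse transcriptase.

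The TERT(High) and TERT(Low) cells came from the same C57BL/6 mice, aged 2 months, with the genotype Tert(CreERT2/+); R26(LSL-Tomato/+). Every mouse of both groups therefore carried the inducible recombinase CreERT2 at 1 of its Tert alleles and a Cre-dependent Tomato reporter at the R26 locus. The labels name no treatment, and they do not give the marker or gate that divided the populations. Liver was dissociated by collagenase perfusion, and the sorted cells went straight into TRIzol.

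Cyclins are the regulatory subunits of CDKs. D cyclins with Cdk4 and Cdk6, and E cyclins with Cdk2, phosphorylate the pocket proteins Rb1, Rbl1 and Rbl2, which otherwise hold E2F factors and their target genes silent. The Cip/Kip and Ink4 inhibitors brake these kinases. Before S phase the Mcm helicase ring is loaded onto replication origins, a step called licensing, and A and B cyclins with Cdk1 then carry the cell through mitosis. Adult hepatocytes are mostly quiescent, divide after injury, and often become polyploid by skipping cytokinesis.

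Library totals lay between 53585174 and 64065266 counts in TERT(High) and between 55355819 and 76164917 in TERT(Low). Levels are given in CPM, the count of a gene relative to the size of its library after scaling by the trimmed mean of M values. Tert itself had 38, 33 and 30 counts in TERT(High) of mice 1, 2 and 3, against 21, 21 and 12 in TERT(Low). That is 0.620, 0.545 and 0.515 CPM, against 0.286, 0.401 and 0.228 CPM. The groups did not overlap, but the log2 fold change of 0.87 ± 0.44 (SE) did not pass (edgeR adjusted p = 0.249). The sums of 6 hepatocyte markers (Alb, Ttr, Apoa1, Cps1, Hnf4a and Asgr1) were between 96150 and 107800 CPM in TERT(High), against 80410 to 99970 CPM in TERT(Low), most of it Alb. Alb lay wholly above in TERT(High), Ttr, Apoa1 and Asgr1 lay wholly below, and Asgr1, the asialoglycoprotein receptor, passed as lower (log2 fold change -0.71, edgeR adjusted p = 0.0485). The TERT(High) library of mouse 1 stood apart, with Col1a1, a fibroblast collagen, at 127 CPM where no other library passed 5.96 CPM. It also held the most haemoglobin RNA (Hba-a1 at 64.6 CPM) and the granulocyte-precursor gene Mpo at 0.702 CPM, which had 0 counts in all 3 TERT(Low) libraries. Summed endothelial markers were higher in every TERT(High) library, at 23.7 to 45.0 CPM against 17.5 to 19.1 CPM in TERT(Low), and 2 of 6 of them passed the test. Neutrophil markers summed to between 1.63 and 5.42 CPM in TERT(High), against 0.273 to 1.46 CPM in TERT(Low). Macrophage markers summed to between 12.53 and 73.1 CPM in TERT(High), against 10.4 to 32.9 CPM in TERT(Low), with the highest value in mouse 3. T and NK cell markers stayed at or under 0.806 CPM, and B cell markers at or under 0.261 CPM. The part of these other cells in the results below was not tested.

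Of the 72 genes, 67 had enough counts to be tested, and 5 of these passed the threshold (edgeR quasi-likelihood test, Benjamini-Hochberg adjusted p under 0.05 over all 13288 tested genes). Cdk12, Cdk13, E2f8 and Ect2 were higher in TERT(High), and Cdk5 was lower. That is 7.46% of the tested members, near the 8.14% of all tested genes that passed. In each direction the shares were 5.97% higher, against 4.43% of all genes, and 1.49% lower, against 3.71%. Every TERT(High) library exceeded every TERT(Low) library for 18 members (26.9%, against 17.5% of all tested genes) and the reverse held for 6 (8.96%, against 15.9%). The groups overlapped for the other 43 (64.2%), as they did for 8851 of all 13288 tested genes. The median log2 fold change was 0.12 over the members and -0.01 over all tested genes. DESeq2, an alternative test on the same counts, called 11 members higher (16.7% of 66, against 12.8% of all genes) and 5 lower (7.58%, against 10.6%). In bulk RNA of sorted cells, fewer cells of a type and less RNA per cell cannot be told apart.

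**Figure D1:**
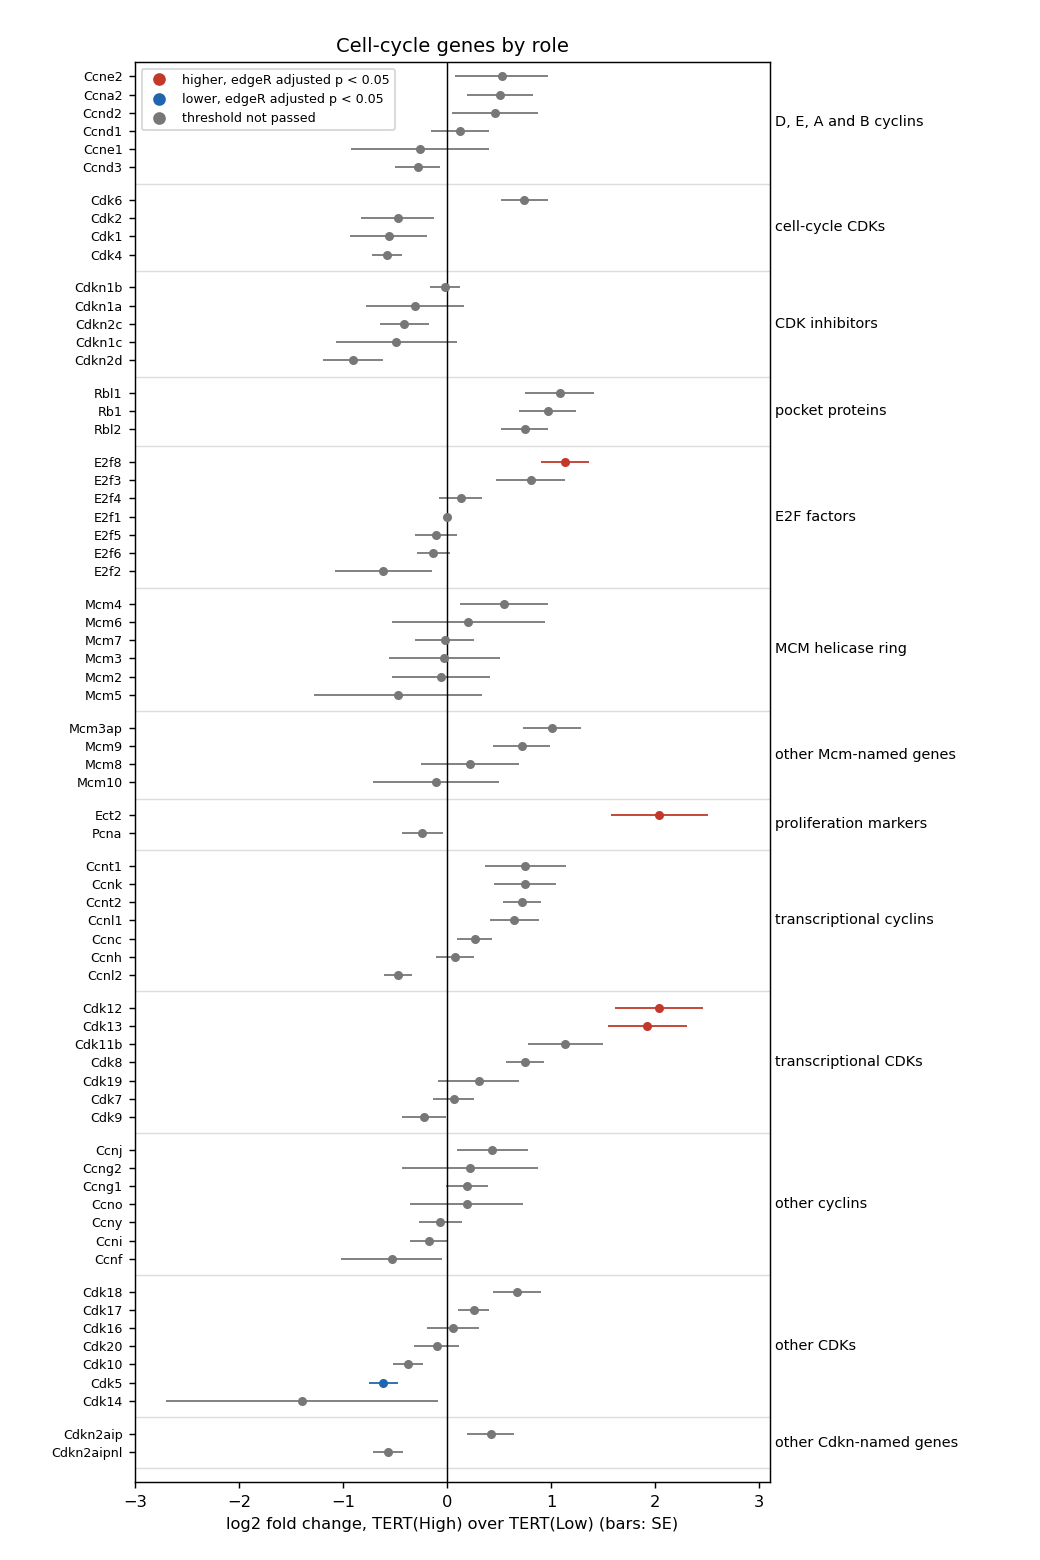
log2 fold change, TERT(High) over TERT(Low), of the 67 tested members, grouped by role; error bars are 1 standard error (not defined for E2f1, at 0). Red points passed the threshold as higher (Cdk12, Cdk13, E2f8 and Ect2), the blue point as lower (Cdk5, -0.61), and the pocket proteins lie together between 0.74 and 1.08 without passing.

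The G1 and S phase cyclins did not separate the populations. Ccnd1, the D cyclin that drives hepatocytes out of quiescence, was the most abundant of them per length, at 30.2 CPM per kilobase over all libraries. Its level was 163, 93.0 and 97.2 CPM in TERT(High) of mice 1, 2 and 3, against 137, 93.4 and 94.0 CPM in TERT(Low). Mouse 1 was high in both populations, and mice 2 and 3 were alike in both. The log2 fold change was 0.12 ± 0.28 (SE; edgeR quasi-likelihood adjusted p = 0.801). Ccnd3, the D cyclin prominent in lymphoid and muscle cells, had 21.0, 15.8 and 17.6 CPM in TERT(High), against 24.7, 25.2 and 16.3 CPM in TERT(Low), which overlapped. Ccnd2 was far lower, between 0.793 and 1.84 CPM in TERT(High), against 0.840 to 1.36 CPM in TERT(Low).

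The E cyclins, which activate Cdk2 at the start of S phase, overlapped between the populations. Ccne1 had 2.29, 0.958 and 0.669 CPM in TERT(High), against 2.92, 0.897 and 0.873 CPM in TERT(Low), so that mouse 1 was highest in both. Ccne2 had 2.81, 1.12 and 1.54 CPM in TERT(High), against 1.28, 0.802 and 1.73 CPM in TERT(Low). Ccna2, the A cyclin of S phase and mitotic entry, was detected at 2.69, 2.10 and 2.81 CPM in TERT(High), against at 1.12, 2.12 and 2.12 CPM in TERT(Low). Its lowest TERT(High) value lay just under the TERT(Low) values of mice 2 and 3, and the log2 fold change of 0.51 ± 0.32 did not pass (edgeR adjusted p = 0.35).

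Several transcripts of mitosis were close to absent, and 5 members were too rare to test. Mki67, the proliferation antigen of cycling cells, had 38, 5 and 3 counts in TERT(High) of mice 1, 2 and 3, against 4, 0 and 0 in TERT(Low). Top2a, the topoisomerase that untangles replicated chromosomes, had 27, 5 and 16 counts in TERT(High), against 7, 0 and 2 in TERT(Low). The mitotic cyclin Ccnb1 had 11, 1 and 0 counts in TERT(High), against 5, 1 and 0 in TERT(Low). For these 3 genes the highest count was in the TERT(High) library of mouse 1, which is also the library with the Col1a1, haemoglobin and Mpo RNA described above. Ccnb2, another mitotic cyclin, had 7, 2 and 3 counts in TERT(High), against 1, 0 and 4 in TERT(Low). Cdkn3, a phosphatase that acts on CDKs, had 5, 3 and 1 counts in TERT(High) and 4, 4 and 7 in TERT(Low). A count of 0 allows up to 3 counts, or between 0.0515 and 0.0573 CPM in the libraries where one of these genes was at 0, and this covers counting error only.

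Among the cell-cycle CDKs, the partners of D cyclins lay on opposite sides of 0, neither past the threshold. Cdk4 had 21.1, 19.2 and 17.6 CPM in TERT(High), against 29.2, 30.8 and 26.4 CPM in TERT(Low). All TERT(High) values were below all TERT(Low) values, with a log2 fold change of -0.58 ± 0.14 that missed the threshold in edgeR (adjusted p = 0.0557) and passed in DESeq2 (adjusted p = 0.00512). Cdk6, the kinase that shares the role of Cdk4, had 10.9, 6.80 and 7.12 CPM in TERT(High), against 5.20, 4.83 and 4.82 CPM in TERT(Low). Here all TERT(High) values were above, with a log2 fold change of 0.74 ± 0.23 (edgeR adjusted p = 0.0874, DESeq2 adjusted p = 0.0484). Cdk6 has the longest transcript of the members, 11525 nucleotides, and its log2 fold change after correction for transcript length and GC content was 0.04, while that of Cdk4 was -0.35. Cdk4 shares 641 exonic bases with Tspan31 on the opposite strand, and as the strand setting of the counting is not given, reads of both genes cannot be told apart there.

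Cdk2, the E and A cyclin kinase, had 7.002, 4.10 and 3.64 CPM in TERT(High), against 8.66, 7.35 and 4.496 CPM in TERT(Low). Cdk1, the mitotic kinase, had 1.63, 0.958 and 0.892 CPM in TERT(High), against 2.28, 1.26 and 1.61 CPM in TERT(Low). In each mouse both kinases were lower in TERT(High), yet the groups overlapped. The log2 fold changes of -0.48 ± 0.35 for Cdk2 (edgeR adjusted p = 0.424) and -0.56 ± 0.37 for Cdk1 (edgeR adjusted p = 0.376) did not pass. With the mouse as a block they were -0.48 ± 0.19 (edgeR adjusted p = 0.154) and -0.57 ± 0.26 (edgeR adjusted p = 0.201), and did not pass either.

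The inhibitors ranged from even to widely spread between mice, and none passed (edgeR, 1 at an unadjusted p under 0.05, and 1 in DESeq2). Both counts are of Cdkn2d, which was lower. Of all tested genes, 12.4% were lower at an unadjusted p under 0.05 in edgeR, and 10.6% were lower in DESeq2. Cdkn1a, which encodes the p53-induced inhibitor p21, was the most abundant member per length, at 48.7 CPM per kilobase. It had 55.2, 139 and 77.7 CPM in TERT(High), against 61.6, 176 and 99.0 CPM in TERT(Low). Mouse 2 was highest and mouse 1 lowest in both populations, and within each mouse the TERT(High) value was the lower one. The log2 fold change over the groups was -0.31 ± 0.47 (edgeR adjusted p = 0.701), and with the mouse as a block it was -0.28 and did not pass either (edgeR adjusted p = 0.17). Cdkn1b, which encodes p27, the inhibitor that holds quiescent cells, had 6.51, 6.75 and 6.49 CPM in TERT(High), against 6.77, 6.63 and 6.70 CPM in TERT(Low). This was among the most even patterns of the members, with a log2 fold change of -0.02 ± 0.15.

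The Ink4 inhibitors block Cdk4 and Cdk6. Cdkn2d, which encodes p19-Ink4d, had 0.734, 0.974 and 0.806 CPM in TERT(High), against 1.74, 1.70 and 1.27 CPM in TERT(Low). The groups did not overlap, and the log2 fold change of -0.91 ± 0.29 missed the threshold in edgeR (adjusted p = 0.0976) and passed in DESeq2 (adjusted p = 0.0484). Cdkn2c, which encodes p18-Ink4c, had 5.75, 5.45 and 4.27 CPM in TERT(High), against 7.22, 5.14 and 8.21 CPM in TERT(Low), which overlapped. The imprinted inhibitor Cdkn1c, or p57, ran from 0.767 to 1.78 CPM in TERT(High), against from 0.695 to 2.98 CPM in TERT(Low). Cdkn2a and Cdkn2b were not analysed here.

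**Figure D2:**
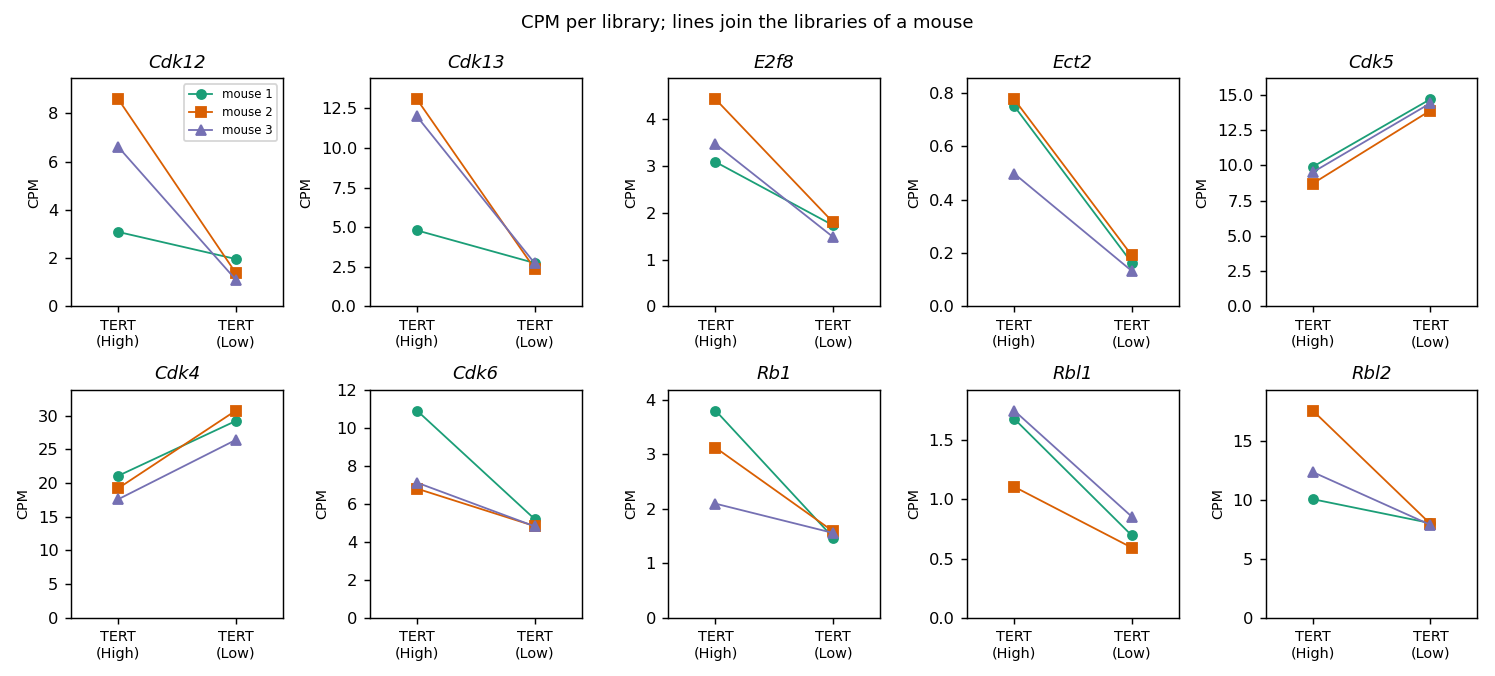
CPM in each library for the 5 members that passed, for Cdk4 and Cdk6 and for the pocket proteins, with TERT(High) on the left and TERT(Low) on the right of each panel, lines joining the libraries of 1 mouse, and each vertical axis starting at 0. Cdk12 spans 3.08 to 8.59 CPM in TERT(High), against 1.1003 to 1.96 CPM in TERT(Low), Cdk4 and Cdk5 lie lower in TERT(High), and the groups overlap in none of the panels.

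The 3 pocket proteins, which bind E2F factors and repress their targets, were all higher in every TERT(High) library than in any TERT(Low) library, but none passed the test (edgeR, 3 at an unadjusted p under 0.05, and 3 in DESeq2). Of all tested genes, 17.5% lay wholly above, 16.3% were higher at an unadjusted p under 0.05, and 12.8% were higher in DESeq2. Rb1, the retinoblastoma protein, had 3.80, 3.12 and 2.09 CPM in TERT(High), against 1.47, 1.58 and 1.56 CPM in TERT(Low). Rbl1, which encodes p107, had 1.68, 1.11 and 1.75 CPM in TERT(High), against 0.695, 0.592 and 0.854 CPM in TERT(Low). Rbl2, which encodes p130, the pocket protein of quiescent cells, had 10.1, 17.6 and 12.4 CPM in TERT(High), against 8.02, 7.96 and 7.87 CPM in TERT(Low). For Rb1 and Rbl2 the TERT(Low) libraries lay close together and the TERT(High) libraries spread out above them. The log2 fold changes were 0.97 ± 0.27 for Rb1, 1.08 ± 0.33 for Rbl1 and 0.74 ± 0.23 for Rbl2, with edgeR adjusted p of 0.0735, 0.0873 and 0.0863. DESeq2 gave adjusted p of 0.0385, 0.0491 and 0.0331, and the authors' deposited table gives 0.0714, 0.0897 and 0.0319. Their transcripts have 4656, 4862 and 4925 nucleotides, above the median of 2957 over all tested genes, and after the correction for length and GC content their log2 fold changes were 0.44, 0.53 and 0.37. Rb1 and Rbl2 also share exonic bases with genes on the opposite strand, 408 with Lpar6 and 488 with Rcbtb2 for Rb1 and 693 with Aktip and 892 with Gm45464 for Rbl2.

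Of the E2F factors, E2f8 rose. E2f8 is an atypical E2F that represses E2F targets and takes part in the polyploidisation of hepatocytes. It had 3.08, 4.43 and 3.47 CPM in TERT(High), against 1.73, 1.79 and 1.48 CPM in TERT(Low), so the lowest TERT(High) library stood well above the highest TERT(Low) library. The log2 fold change was 1.13 ± 0.23 (edgeR adjusted p = 0.0375), higher in 3 of 3 mice, and it passed with the mouse as a block (edgeR adjusted p = 0.0452) and in DESeq2 (adjusted p = 0.00153). The authors' deposited table gives E2f8 a smaller log2 fold change of 0.42 with an adjusted p of 0.2, and a mean normalised count of 288.6 where the deposited counts give 157.7. This ratio of 1.83 was the largest for the 63 members in both tables. The gene, at chr7:48866429-48882073 (GRCm38.p6), shares 610 exonic bases with Gm2788 on the opposite strand.

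The activator E2Fs and the other repressors did not pass. E2f1 had 3.13, 1.78 and 1.97 CPM in TERT(High), against 2.96, 1.89 and 2.05 CPM in TERT(Low), with mouse 1 high in both. E2f3 had 5.68, 2.44 and 3.35 CPM in TERT(High), against 2.29, 2.06 and 2.22 CPM in TERT(Low), without overlap, and a log2 fold change of 0.80 ± 0.33 (edgeR adjusted p = 0.168). E2f2 was even at 2.27, 2.25 and 2.32 CPM in TERT(High), against 2.18, 6.32 and 1.99 CPM in TERT(Low), where mouse 2 alone was high. E2f4, E2f5 and E2f6, which work mainly as repressors, had log2 fold changes between -0.13 and 0.13 and overlapped. E2f7 was not analysed here.

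The Mcm2 to Mcm7 ring unwinds DNA at replication forks, and its genes are known E2F targets. None of the 6 passed (edgeR, 0 at an unadjusted p under 0.05, and 0 in DESeq2). All 6 overlapped between the populations, as did 8851 of all 13288 tested genes. The median log2 fold change of the 6 was -0.03. Their summed level was 31.2, 18.4 and 17.4 CPM in TERT(High) of mice 1, 2 and 3, against 34.8, 16.3 and 15.8 CPM in TERT(Low). Mouse 1 stood about as high in TERT(Low) as in TERT(High). Averaged over a mouse's libraries, mouse 1 was highest for 6 of 6 ring genes, for 36 of the 67 tested members (53.7%), and for 30.8% of all tested genes. Mcm5 had 4.13, 0.925 and 1.32 CPM in TERT(High), against 6.04, 1.01 and 1.78 CPM in TERT(Low). Mcm6 had 6.92, 2.18 and 4.02 CPM in TERT(High), against 6.77, 0.821 and 3.76 CPM in TERT(Low). Mcm7, the most abundant ring gene in CPM, had 10.6, 10.9 and 7.36 CPM in TERT(High), against 12.7, 10.02 and 6.54 CPM in TERT(Low). The distance between mice exceeded the difference between the populations for all 6, on the log2 scale after adding 0.1 CPM, as it did for 57.6% of all tested genes.

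**Figure D3:**
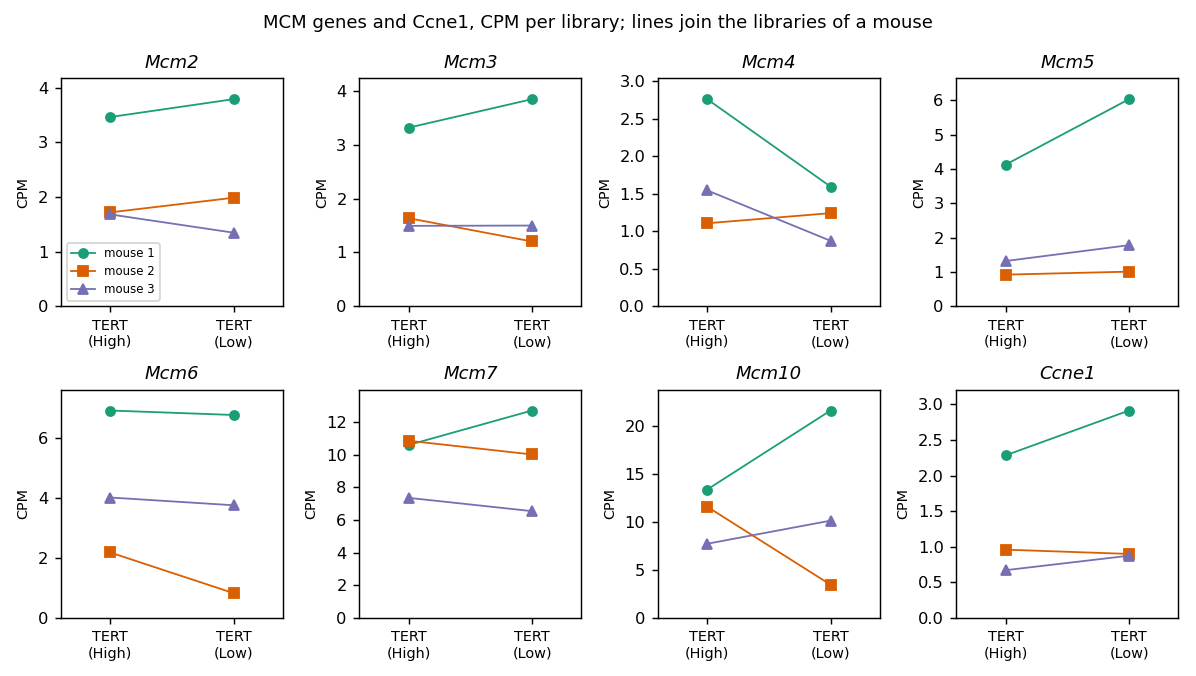
CPM of the 6 Mcm ring genes, Mcm10 and Ccne1 in each library, TERT(High) on the left and TERT(Low) on the right, with mice told apart by marker and colour, lines joining the libraries of 1 mouse, and axes from 0. The ring sums of 31.2 CPM in TERT(High), against 34.8 CPM in TERT(Low) of mouse 1 exceed those of mice 2 and 3, which lie between 15.8 and 18.4 CPM.

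Promoters of ring genes are shown here with the letters of the E2F motif, as these genes are classical E2F targets. RefSeq promoter entries on GRCm38.p6, 250 bases before to 50 bases after a start, were found for 58 of the 72 members, as 66 promoters. The E2F motif was searched as TTTCCCGC, TTTCGCGC, TTTGCCGC or TTTGGCGC on either strand, and it was present in 10 of 66 member promoters (15.2%), against 2.26% of all 32851 promoters in the table and 3.59% of the 15460 promoters of genes with counts. The cell cycle homology region (CHR), a motif of mitotic genes, was searched as TTTGAA or TTTAAA on either strand, and it was present in 21 of 66 (31.8%), against 27.6% of all and 20.1% of those of genes with counts. The ring genes other than Mcm4 had 6 entries for 5 genes, of which 4 entries held the E2F motif: those of Mcm3, Mcm5, Mcm6 and Mcm7. The windows of 180 bases below are written 5′ to 3′ on the strand of the gene, with matches to either motif in capitals. Mcm5 and Mcm6 are shown as ring genes, Cdk1 and Rbl1 as members of other roles with an E2F match, and E2f8 and Ect2 as genes that rose. In Mcm5 and in the first run of Mcm6, a match on each strand overlaps into 12 capitals. Mcm5 lies at chr8:75109329-75109508 (+), Mcm6 at chr1:128359706-128359885 (-), Cdk1 at chr10:69352913-69353092 (-), Rbl1 at chr2:157204535-157204714 (-), E2f8 at chr7:48881597-48881776 (-) and Ect2 at chr3:27153879-27154058 (-).
Mcm5: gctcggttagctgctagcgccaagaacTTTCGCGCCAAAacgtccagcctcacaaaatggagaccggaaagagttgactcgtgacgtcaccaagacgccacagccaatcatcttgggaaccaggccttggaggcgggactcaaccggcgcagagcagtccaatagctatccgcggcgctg
Mcm6: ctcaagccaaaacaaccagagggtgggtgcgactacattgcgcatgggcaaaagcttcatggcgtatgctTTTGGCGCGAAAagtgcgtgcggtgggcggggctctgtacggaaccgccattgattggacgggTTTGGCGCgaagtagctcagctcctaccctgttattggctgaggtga
Cdk1: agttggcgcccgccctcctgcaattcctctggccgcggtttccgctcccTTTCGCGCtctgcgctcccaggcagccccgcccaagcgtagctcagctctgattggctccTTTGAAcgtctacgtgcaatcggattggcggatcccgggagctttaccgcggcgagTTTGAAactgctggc
Rbl1: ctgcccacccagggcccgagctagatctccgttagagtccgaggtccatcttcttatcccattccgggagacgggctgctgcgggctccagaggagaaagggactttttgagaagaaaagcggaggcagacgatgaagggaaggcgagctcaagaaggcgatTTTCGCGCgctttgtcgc
E2f8: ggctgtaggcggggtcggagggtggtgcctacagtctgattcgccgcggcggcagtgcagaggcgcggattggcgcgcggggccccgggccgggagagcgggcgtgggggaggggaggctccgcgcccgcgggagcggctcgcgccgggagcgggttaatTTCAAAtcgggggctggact
Ect2: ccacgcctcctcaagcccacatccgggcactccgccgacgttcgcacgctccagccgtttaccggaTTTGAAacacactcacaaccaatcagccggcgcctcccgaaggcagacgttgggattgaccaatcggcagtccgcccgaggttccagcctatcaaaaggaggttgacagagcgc
The capitals in E2f8 and Ect2 are CHR matches only, those in Cdk1 are 1 E2F and 2 CHR matches, and those in Rbl1 are an E2F match. The windows of E2f8 and Ect2 lie wholly within the gene positions given in this report, before a start inside the gene. Sequence before the outer end of these 2 genes was not searched. Ect2 had a further entry, not printed, which also held CHR matches only. None of the 10 genes with an E2F match (Cdk1, Cdk2, E2f2, E2f3, Mcm3, Mcm5, Mcm6, Mcm7, Mcm8 and Rbl1) passed the test between the populations in edgeR, and 2 of them, E2f3 and Rbl1, were higher at an unadjusted p under 0.05. In DESeq2, 1 of them, Rbl1, passed. Over all tested genes 8.14% passed in edgeR and 16.3% were higher at an unadjusted p under 0.05, so these counts are no result about genes with the motif. The promoters of Cdk12 and Cdk13 held neither motif.

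Outside the ring, none of the Mcm-named genes passed in edgeR. There, 2 of 4 were higher at an unadjusted p under 0.05, as were 16.3% of all tested genes. In DESeq2 1 was higher, as were 12.8% of all genes. Mcm10, which helps to start the replication fork, had 13.4, 11.6 and 7.70 CPM in TERT(High), against 21.6, 3.44 and 10.1 CPM in TERT(Low), the widest range of these genes. Mcm9, a helicase of homologous recombination, had 1.96, 2.01 and 1.72 CPM in TERT(High), against 1.36, 1.22 and 0.873 CPM in TERT(Low), with no overlap and a log2 fold change of 0.72 ± 0.27 (edgeR adjusted p = 0.143). Mcm9 shares 1748 exonic bases with Asf1a on the opposite strand. Mcm3ap, which encodes the mRNA export factor GANP and is no part of the helicase, had 6.87, 13.3 and 11.7 CPM in TERT(High), against 5.89, 5.46 and 4.46 CPM in TERT(Low). It did not overlap, and its log2 fold change of 1.01 ± 0.28 missed the threshold in edgeR (adjusted p = 0.0682) and passed in DESeq2 (adjusted p = 0.00965). Mcm8, the helicase partner of Mcm9, lay between 0.363 and 0.7998 CPM in TERT(High), against 0.382 to 0.645 CPM in TERT(Low).

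Pcna, the sliding clamp of DNA polymerases, had 29.0, 19.9 and 21.0 CPM in TERT(High), against 30.5, 24.3 and 27.7 CPM in TERT(Low), which overlapped (log2 fold change -0.24 ± 0.19, edgeR adjusted p = 0.479). Ect2, the exchange factor that activates RhoA for cytokinesis, rose. It had 46, 47 and 29 counts in TERT(High), or 0.751, 0.776 and 0.498 CPM, against 12, 10 and 7 counts in TERT(Low), or 0.163, 0.191 and 0.133 CPM. Every TERT(High) value was more than 2 times the highest TERT(Low) value, and unlike Mki67 and Top2a the TERT(High) library of mouse 1 did not stand out. The log2 fold change was 2.04 ± 0.46 (edgeR adjusted p = 0.0468). With the mouse as a block it was 2.03 and missed the threshold (edgeR adjusted p = 0.0541), and DESeq2 gave no adjusted p at this low level. Of the alternative fits that gave it an adjusted p, it stayed under 0.05 with upper-quartile scaling (edgeR adjusted p = 0.045) and no other. The gene lies at chr3:27097222-27154253 (GRCm38.p6). Ect2 was the lowest tested member per length, at 0.102 CPM per kilobase.

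Of the members that passed, Cdk12 and Cdk13 are kinases of transcription and not of the cell cycle. They pair with cyclin K and phosphorylate the tail of RNA polymerase II during elongation, and Cdk12 is known for sustaining long DNA repair genes. Cdk12 had 3.08, 8.59 and 6.61 CPM in TERT(High), against 1.96, 1.37 and 1.1003 CPM in TERT(Low). Cdk13 had 4.80, 13.1 and 11.99 CPM in TERT(High), against 2.74, 2.39 and 2.73 CPM in TERT(Low). For both, mouse 1 was the lowest of the TERT(High) libraries and still above every TERT(Low) library. The log2 fold change was 2.04 ± 0.43 for Cdk12 (edgeR adjusted p = 0.0401) and 1.93 ± 0.38 for Cdk13 (edgeR adjusted p = 0.0369), each higher in 3 of 3 mice. With the mouse as a block Cdk12 missed the threshold (1.96, edgeR adjusted p = 0.0626) and Cdk13 passed (1.80, edgeR adjusted p = 0.0492). In the authors' deposited table their log2 fold changes are 1.57 and 1.57. On the genome, Cdk12 lies at chr11:98202433-98281101 and Cdk13 at chr13:17711676-17805212 (GRCm38.p6).

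Their partner Ccnk had 7.79, 10.7 and 8.24 CPM in TERT(High), against 5.04, 7.33 and 3.53 CPM in TERT(Low). It did not overlap, and its log2 fold change was 0.75 ± 0.30 (edgeR adjusted p = 0.154). Cdk11b, a kinase of splicing and transcription, had 4.83, 9.28 and 11.3 CPM in TERT(High), against 2.74, 4.58 and 4.25 CPM in TERT(Low). Its log2 fold change of 1.14 ± 0.36 missed the threshold (edgeR adjusted p = 0.0951). It passed with the mouse as a block (1.08, edgeR adjusted p = 0.042) and in DESeq2 (adjusted p = 0.0237). Cdk8, the kinase of the Mediator complex, had 11.3, 9.26 and 8.75 CPM in TERT(High), against 5.19, 5.67 and 6.58 CPM in TERT(Low). It narrowly missed in edgeR (0.75 ± 0.18, adjusted p = 0.0543) and passed in DESeq2 (adjusted p = 0.0142). Ccnc, its cyclin, had 15.5, 12.01 and 14.6 CPM in TERT(High), against 10.5, 11.9 and 12.7 CPM in TERT(Low), which overlapped.

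The kinases that act at promoters and in pause release overlapped between the populations. Cdk7 of the TFIIH complex had 11.4, 8.47 and 11.9 CPM in TERT(High), against 11.2, 8.65 and 10.6 CPM in TERT(Low). Cdk9, the P-TEFb kinase, had 19.1, 23.5 and 17.0 CPM in TERT(High), against 20.0, 29.1 and 20.6 CPM in TERT(Low). Their TERT(High) and TERT(Low) values interleave, with log2 fold changes of 0.06 ± 0.20 and -0.23 ± 0.21. Of the cyclins of P-TEFb, Ccnt2 had 5.76, 4.54 and 4.84 CPM in TERT(High), against 3.12, 2.88 and 3.21 CPM in TERT(Low), without overlap (0.72 ± 0.18, edgeR adjusted p = 0.0599, DESeq2 adjusted p = 0.0218), whereas Ccnt1 overlapped. The splicing cyclins lay on opposite sides: Ccnl1 lay between 2.299 and 2.51 CPM in TERT(High), against 1.38 to 1.89 CPM in TERT(Low), and Ccnl2 between 9.18 and 9.27 CPM in TERT(High), against 11.97 to 13.8 CPM in TERT(Low). Neither passed in edgeR (adjusted p = 0.129 for Ccnl1 and 0.0793 for Ccnl2), and in DESeq2 Ccnl2 passed (adjusted p = 0.0124) and Ccnl1 did not (adjusted p = 0.123). In all, 4 of the 7 transcriptional CDKs and 3 of the 7 transcriptional cyclins lay wholly above, where 17.5% of all tested genes did. DESeq2 called 4 of these CDKs higher and 0 lower, and 1 of these cyclins higher and 1 lower. Of all genes it called 12.8% higher and 10.6% lower. The median log2 fold changes of these CDKs and cyclins were 0.75 and 0.65, and after the correction for length and GC content 0.70 and 0.12.

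Cdk5, an atypical CDK that binds p35 in place of a cyclin and is best known from neurons, fell. It had 9.89, 8.70 and 9.51 CPM in TERT(High), against 14.7, 13.9 and 14.4 CPM in TERT(Low). Each group was tight, and the groups lay far apart for that spread. The log2 fold change was -0.61 ± 0.14 (edgeR adjusted p = 0.0454), lower in 3 of 3 mice. With the mouse as a block it was -0.61 and missed the threshold (edgeR adjusted p = 0.0523), whereas DESeq2 called it (adjusted p = 0.00129). The gene lies at chr5:24407597-24423587 (GRCm38.p6). Of the other CDKs outside the cycle, Cdk18 had 20.9, 22.7 and 21.6 CPM in TERT(High), against 15.0, 16.7 and 9.24 CPM in TERT(Low), with no overlap (0.67 ± 0.23, edgeR adjusted p = 0.115). Cdk10, the partner of cyclin M, had 13.3, 10.8 and 12.1 CPM in TERT(High), against 15.8, 16.0 and 15.1 CPM in TERT(Low), also without overlap (-0.38 ± 0.14, edgeR adjusted p = 0.143). Cdk17, a kinase of the PCTAIRE family, had 6.58, 6.62 and 6.55 CPM in TERT(High), against 5.30, 5.77 and 5.50 CPM in TERT(Low), a small difference without overlap (0.25 ± 0.15, edgeR adjusted p = 0.32). Cdk14 swung from 0.0382 to 1.48 CPM within TERT(Low) alone.

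The remaining cyclins held some of the most abundant members and no call. Ccng1, a p53 target, had 90.4, 74.002 and 72.9 CPM in TERT(High), against 63.5, 57.2 and 87.1 CPM in TERT(Low). Ccni had 116, 102 and 83.5 CPM in TERT(High), against 95.3, 122 and 122 CPM in TERT(Low). Ccnf, the substrate receptor of an SCF ubiquitin ligase, was highest in mouse 2 in both, with 7.49, 13.03 and 6.37 CPM in TERT(High), against 10.3, 22.0 and 6.73 CPM in TERT(Low). All 7 of these other cyclins overlapped between the populations (edgeR, 0 at an unadjusted p under 0.05, and 0 in DESeq2). Of all 13288 tested genes, 8851 overlapped as well. Cdkn2aipnl, which is no inhibitor of CDKs, lay between 11.3 and 13.5 CPM in TERT(High), against 16.9 to 19.1 CPM in TERT(Low). It narrowly missed in edgeR (-0.57 ± 0.14, adjusted p = 0.0574) and passed in DESeq2 (adjusted p = 0.00535).

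The genes that work with the members were followed in 5 lists of 60 genes, of which 44 were tested and 1 passed (2.27%, against 8.14% of all tested genes). DESeq2 called 3 of the 44 higher and 1 lower, where it called 12.8% of all genes higher and 10.6% lower. Cdc27, a subunit of the anaphase-promoting complex that destroys B cyclins, had 14.7, 7.96 and 11.8 CPM in TERT(High), against 5.42, 4.87 and 5.20 CPM in TERT(Low), and rose (1.15 ± 0.25, edgeR adjusted p = 0.0412). None of 14 origin licensing and firing genes passed in edgeR or DESeq2, and 1 was higher at an unadjusted p under 0.05 in edgeR, where 16.3% of all tested genes were higher and 12.4% lower. The largest difference among those 14 was in Dbf4, the activator of the Cdc7 kinase (0.88, edgeR adjusted p = 0.169). None of 8 CDK activators and brakes passed in edgeR or DESeq2, and 0 had an unadjusted p under 0.05 in edgeR. None of 8 genes of mitotic kinases, spindle and cytokinesis passed in either test. At an unadjusted p under 0.05 in edgeR, 1 of these 8 was lower, Cenpf (-0.77), and 0 were higher. Lin54, the DNA-binding subunit of the DREAM complex that pairs with Rbl1 and Rbl2, had a log2 fold change of 1.05 (edgeR adjusted p = 0.0665, DESeq2 adjusted p = 0.0189), and Lin9, of the same complex, of 0.67 (edgeR adjusted p = 0.148, DESeq2 adjusted p = 0.17). In that list Rbbp4, a histone-binding subunit of DREAM, lay wholly below (-0.55, edgeR adjusted p = 0.0828, DESeq2 adjusted p = 0.0201), as did Lin37 (-0.34, edgeR adjusted p = 0.281). Cul1, the scaffold of SCF ligases, had a log2 fold change of 0.84 (edgeR adjusted p = 0.0903, DESeq2 adjusted p = 0.0277).

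The differences of the members ran with transcript length, as did those of the table as a whole. Spearman's rho between log2 fold change and transcript length was 0.521 over the 67 tested members and 0.484 over 12546 tested genes with a length, across genes that share the same 6 libraries. Of the 33 members in the longer part, 23 had a log2 fold change above 0, against 14 of the 34 in the shorter part. Cdk12 and Cdk13, at 5143 and 5202 nucleotides, are among the longer members, and Cdk5, at 2059 nucleotides, is among the shorter ones. With a correction for length and GC content in the edgeR fit, none of the members passed, and log2 fold changes were 1.69 for Cdk12, 1.57 for Cdk13, 0.9998 for E2f8, 1.55 for Ect2 and -0.39 for Cdk5, with adjusted p between 0.209 and 0.432. No other gene of the table passed in that fit either, where at an unadjusted p under 0.05 in edgeR 8 members and 1119 of all tested genes were higher, and 0 members and 586 genes were lower. RNA integrity was not measured in the sources used here, so its part in the length relation was not tested.

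**Figure D4:**
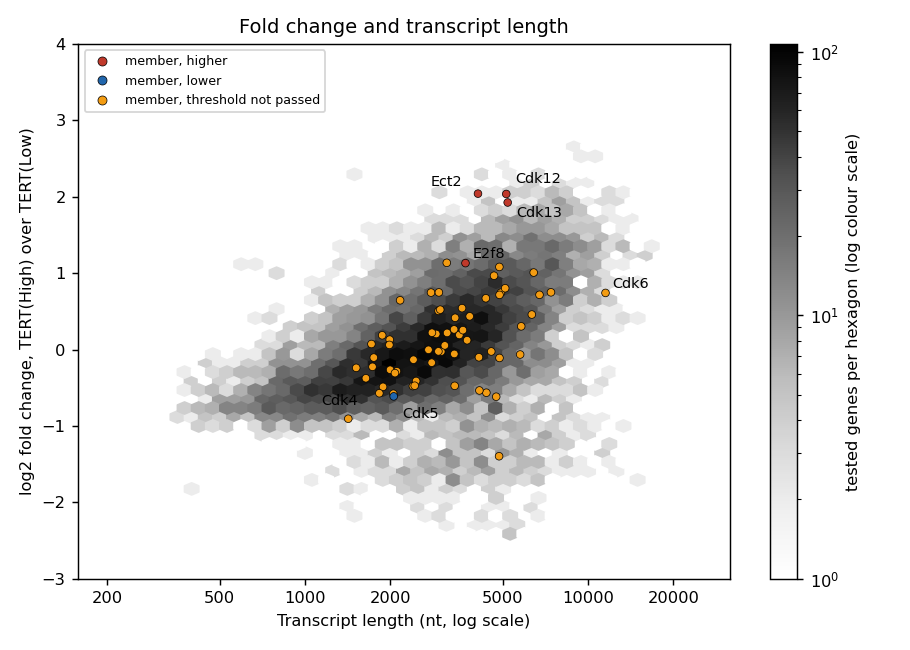
log2 fold change, TERT(High) over TERT(Low), against transcript length on a log axis for all 12546 tested genes with a length (grey hexagons, shaded by the number of genes on a log scale) and for the 67 tested members (points). Cdk12, Cdk13 and Ect2 stand near 2, and Cdk4 and Cdk5 near -0.6 among shorter transcripts.

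The 5 called members depended on most libraries. With the TERT(High) library of mouse 1 left out, Cdk12 (2.31, edgeR adjusted p = 0.0224), Cdk13 (2.21, edgeR adjusted p = 0.017), E2f8 and Cdk5 passed, as did Cdk11b, Mcm3ap, Rbl2, Cdk4 and Cdkn2aipnl. Ect2 did not (edgeR adjusted p = 0.0891). These calls are 6 members higher and 3 lower, in a fit that called 937 of all 13685 fitted genes higher and 713 lower. With any other single library left out, or with both libraries of mouse 1, of mouse 2 or of mouse 3 left out, none of the members passed in edgeR, nor did any gene of the table, although between 6 and 15 members were higher and between 1 and 6 lower at an unadjusted p under 0.05. Over all genes in these fits (12711 to 13779 fitted), 1071 to 1958 were higher and 748 to 1515 lower at that unadjusted edgeR p. The log2 fold changes of the 5 called members kept their sign in all 9 fits that left out a library or a mouse, from 1.66 to 2.62 for Cdk12, 1.61 to 2.29 for Cdk13, 0.94 to 1.27 for E2f8, 1.91 to 2.22 for Ect2 and -0.70 to -0.58 for Cdk5.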

How the data were processed

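Per the labels, each mouse gave both populations, and a stranded mRNA kit was used. The submitters' processing notes list TopHat2 2.0.13, Trim Galore 0.4.0 and DESeq2, with mm10 as the build. Which program counted reads, with which annotation and strand setting, is not given in the sources used here. The deposited table holds raw counts for each gene and library. In the results table that the authors deposited, per the file headers, the signal is the mean count after division by size factors, the log2 fold change and its log2 standard error stand beside a linear fold change, the score is the test statistic, and the p-value columns hold raw and adjusted p.

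Groups were compared with edgeR 4.0.16 under R 4.3.3 (filterByExpr by group, trimmed mean of M values, robust quasi-likelihood fit of the group alone, Benjamini-Hochberg adjusted p under 0.05 over 13288 genes). This fit ignores the pairing and has a common coefficient of biological variation of 40.7%. Because the labels give 1 mouse to each pair, the mouse as a block was an alternative (29.6%). Deviations from the group means correlated within mice 1, 2 and 3 at -0.112, 0.755 and 0.643 over all tested genes. Over the 67 tested members the correlations were 0.521, 0.668 and 0.487. DESeq2 1.42.0, limma-voom (limma 3.58.1), other scalings and filters, a correction for transcript length and GC content (natural splines with 4 degrees of freedom), a threshold of 0.10 and leaving out libraries or mice were the other alternatives. Standard errors were derived from the log2 fold change and its F statistic. The fits were tested on 3 simulated data sets. These held no mouse effect and no trend with length or GC content. They therefore cannot show how the block or the correction performs where such effects are present.

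Transcript lengths are of the GENCODE M21 transcript with the longest coding sequence, and promoters and gene positions are from RefSeq (GRCm38.p6). Of the 72 members, 30 share exonic bases with another gene in GENCODE M21, and their reads are uncertain where strand was not used. The members, role lists and tests were chosen with earlier results of these data known. Named are all called members, a set of core cell-cycle genes, the 3 most abundant members of each role, and, of the partner lists, the called gene and the 2 largest differences in each list, not all of which are printed; members whose groups do not overlap are named too. Figures were made with Python 3.11.15 and matplotlib 3.10.9.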

Additional observations from a re-analysis of the deposited data

How the results depend on the processing

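The mouse as a block left 3 members higher (Cdk11b, Cdk13 and E2f8) and 0 lower, against 4 and 1 in the unblocked fit (edgeR adjusted p under 0.05). Over all genes the block gave more calls, 721 higher and 571 lower, against 588 and 493 in the unblocked fit. Members called higher numbered 11 in DESeq2, 1 in limma-voom (E2f8), 12 at an adjusted p under 0.10, and 0 with the length and GC correction, alone or with the block. Members called lower numbered 5 in DESeq2, 5 at an adjusted p under 0.10, 3 with upper-quartile scaling, 2 with a strict filter, 0 with library totals, 0 without a filter and 0 with the length and GC correction, alone or with the block. Over all genes, 588 were higher and 493 lower, against 1527 and 1266 in DESeq2, 1421 and 1138 at an adjusted p under 0.10, and 0 and 0 with the length and GC correction, alone or with the block. Upper-quartile scaling gave 542 higher and 712 lower. Limma-voom gave 531 and 464, the strict filter 871 and 693 of 10645 genes, and no filter 492 and 336 of 15565 genes. Scaling by library totals gave 628 higher and 19 lower, and moved the median over all genes from -0.01 to 0.14 on the log2 scale. With a library or a mouse left out, members called ranged from 0 to 6 higher and from 0 to 3 lower, and all genes from 0 to 937 higher and from 0 to 713 lower. The highest value in each range came without the TERT(High) library of mouse 1, and the other 8 such fits gave 0. None of the named members called in the main comparison changed sign under any alternative in which it was tested. The cause of these shifts was not tested.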

Other observations

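The deposited counts and the authors' deposited table do not describe the same values for every gene. Over 10851 genes in both, the authors' mean normalised count was 1.03 times the value recomputed from the counts at the median, and 1557 genes (14.3%) departed from that ratio by more than 5%. Of 63 members in both, 5 did so: E2f8 (1.83), E2f1 (1.19), Ccnl2 (1.12), Cdkn1c (1.09) and Cdk11b (1.08). In the authors' deposited table, adjusted p is under 0.05 for 13 members (20.6%), 9 higher and 4 lower, against 29.2% of all genes in that table (15.8% higher and 13.4% lower). Rb1, Rbl1, E2f8, Cdkn2d (adjusted p = 0.142 in that table) and Ccnt2 (0.0605) passed in DESeq2 here but not in that table. Ccnk (adjusted p = 0.0154 in that table) and Cdk18 (0.0153) passed there but not in DESeq2 here.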
